A study of Pseudotsuga menziesii with 10 samples.

Results

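A group of 162 assembled transcripts (contigs) of Douglas-fir (Pseudotsuga menziesii) was abundant in the female gametophyte in early June and almost gone from it in early July. They were chosen from the 54889 contigs of the deposited table by their levels alone. Levels are in FPKM, a count of sequenced fragments scaled by the length of the contig and the depth of the library. A member reached 100 FPKM with and without pollen on 10 June, and 10 FPKM with and without pollen on 22 June. It was under 1 FPKM in both states on 6 July, and also in cone scales and in cone bracts. The change between those dates and the difference from those tissues are therefore given as a description and carry no test. The libraries of 30 June did not enter the choice. The direction of the gap between pollinated and unpollinated libraries did not enter it either. The limits do bound the size of that gap on 10 June, 22 June and 6 July.

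The megagametophyte of conifers is the haploid, many-celled female gametophyte. It grows from a single megaspore, forms archegonia that hold the egg cells, and later feeds the embryo from its stored reserves. The embryo grows into a space within it, the corrosion cavity. In ovules without pollen the gametophyte of Douglas-fir can still develop for a time, then stops and degenerates. The scales and bracts of the cone are diploid sporophyte tissue, the scale bearing the ovules and the bract lying beneath it.

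All samples came from ramets of 1 clone, genotype 970, grown in a field orchard. Cones were bagged before pollen release in 2011, and some bags received a mix of pollen of 6 genotypes while the others received none. Megagametophytes, 200 to 400 to a pool, were dissected from pollinated and from unpollinated cones on 10, 22 and 30 June and 6 July, dates which the labels tie to corrosion cavity formation, fertilization, embryogenesis, and early abortion without pollen. Scales and bracts were taken on 26 May. Each of these 10 groups is 1 library of polyA RNA, so no group has a replicate, and tissue and collection date cannot be told apart. The stage label of every pollinated library names embryo beside megagametophyte, including that of 10 June. How much embryo RNA the later pollinated pools held was not tested. In such pools, fewer cells of a type and less RNA per cell cannot be told apart. The table pairs its contigs with no gene names, so the tissue could not be checked against known markers, and members are given by identifier, without roles.

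The choice of thresholds left near neighbours on either side. At 10 June the members closest to the limit had a lower value of 100.1 and 102.3 FPKM, and the closest contigs outside it 98.7 and 96.7 FPKM. Contigs that missed only that criterion numbered 166. At 22 June the closest members stood at 10.2 and 11.9 FPKM and the closest excluded contigs at 9.85 and 9.34 FPKM, with 32 missing only that criterion. At 6 July the closest members reached 0.972 and 0.892 FPKM and the closest excluded contigs 1.06 and 1.27 FPKM, with 29 missing only that criterion. In scales and bracts 59 contigs missed only that criterion, the closest with a higher value of 1.0 and 1.01 FPKM against 0.986 FPKM in the closest members. The set thus has no natural border, and the limits cut through a continuous range of levels.

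On 10 June the members stood at nearly the same levels in both pollination states. The rule bounds this gap, because both libraries had to reach 100 FPKM. Their median was 218 FPKM with pollen and 204 FPKM without, with ranges of 100.1 to 975 FPKM and 102.3 to 878 FPKM. Together they made up 7.97% of all FPKM in the pollinated and 7.35% in the unpollinated library, and the 10 most abundant members held 15.7% and 16.3% of that sum. Abundance was therefore spread over the set rather than held by a few contigs. The order of the members was also alike in both libraries (Spearman rho 0.93 across 162 members, a description without a p, since the libraries share tissue and date). No member differed 2-fold between the states, whereas 6.7% of contigs that reached 1 FPKM in either library were that much higher and 8.18% that much lower with pollen. Those contigs include far lower levels. Another 537 contigs reached 100 FPKM in both libraries and were not lost by 6 July, that is, not under 1 FPKM in both states. Of these, 6 were 2-fold or more higher and 2 lower. By any amount 103 members were higher with pollen (39.8% of contigs that reached 1 FPKM in either library), 56 were lower (59.3%) and 3 were equal.

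The highest member on 10 June was GAZW02027246. With pollen it stood at 975, 185, 0.385 and 0.0353 FPKM on the 4 dates, and without pollen at 819, 17.3, 0.0353 and 0.454 FPKM. For GAZW02053051 the levels were 884, 518, 0.0353 and 0.329 FPKM with pollen and 878, 123.5, 4.31 and 0.0425 FPKM without. Both began at almost equal levels in both states and were 4-fold or more lower without pollen on 22 June, but on 30 June they differed in opposite directions. The reading of 0.0353 FPKM lies in the lowest cluster of values in the table, at or under 0.0644 FPKM, which holds 29.5% of all megagametophyte values. Differences within that cluster are not to be read as levels, but later medians, shares left and counts by any amount include values from it.

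**Figure D1:**
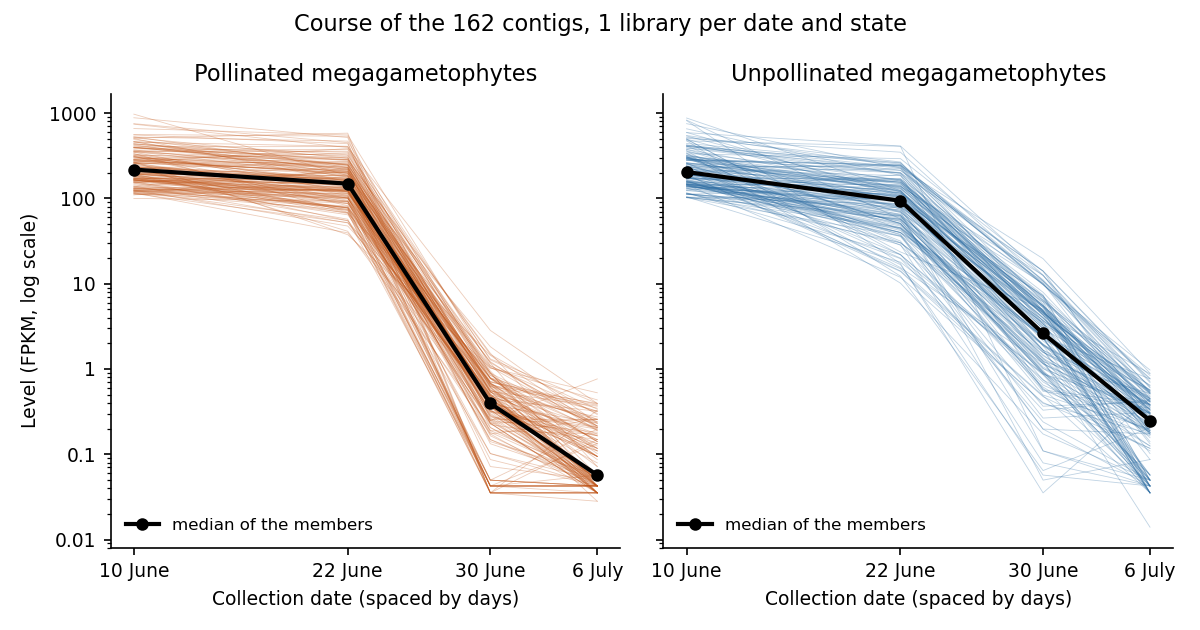
Level of each of the 162 members (thin lines, FPKM on a log scale) and their median (black) on the 4 dates, spaced by days, in pollinated and unpollinated megagametophytes, with 1 library per point. The median stood at 149 and 94.0 FPKM on 22 June and at 0.395 and 2.62 FPKM on 30 June in pollinated and unpollinated megagametophytes.

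By 22 June, 12 days later, most members kept much of their level with pollen and less of it without. In pollinated megagametophytes the median was 149 FPKM, and the median member had 72.6% of its 10 June level left (quartiles 51.7% and 87.3%). In unpollinated megagametophytes the median was 94.0 FPKM, with 46.7% left (quartiles 25.4% and 63.5%). At least 50% of the 10 June level was left in 127 members with pollen and in 71 without, and 151 of 162 had more left with pollen. Their share of all FPKM was 5.79% in the pollinated and 3.75% in the unpollinated library. A few members stood higher on 22 June than on 10 June, 15 in pollinated and 9 in unpollinated megagametophytes, of which 6 did so in both.

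The gap between the states on 22 June had 1 direction in nearly all members. Pollinated megagametophytes were higher for 161 of 162, against 50.5% of contigs that reached 1 FPKM in either library (48.5% were lower) and 54.3% of those that reached 10 FPKM in both. The median difference was 0.67 in log2(FPKM + 1), with quartiles of 0.47 and 1.09, and it was 0.00 over all contigs. The gap was 2-fold or more for 43 members (26.5%) in the pollinated direction and for 0 in the other. Among contigs that reached 1 FPKM in either library, 7.55% were that much higher and 5.65% that much lower with pollen. Among those that reached 10 FPKM in both, 1.92% were 2-fold or more higher with pollen. With 1 library per state these are differences between libraries, with no replicate check. The rule also trims this gap from above, because contigs that were under 10 FPKM in a library of 22 June are not members.

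GAZW02003165 had the widest gap on 22 June, at 178 FPKM with pollen and 12.27 FPKM without, after 464 and 477 FPKM on 10 June. GAZW02038539 followed, at 119 against 10.2 FPKM after 349 and 342 FPKM. On 30 June neither was above 0.173 FPKM in a library. At the other end was GAZW02009026, the only member lower in pollinated, at 253 against 262 FPKM. GAZW02034518 was nearly equal at 249.7 and 246 FPKM. Without pollen, GAZW02009026 and GAZW02034518 had 59.4% and 85.8% of their 10 June level left on 22 June, whereas GAZW02003165 and GAZW02038539 had 2.57% and 2.97%. Since each had nearly equal levels in both states on 10 June, these shares largely restate the gaps.

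**Figure D2:**
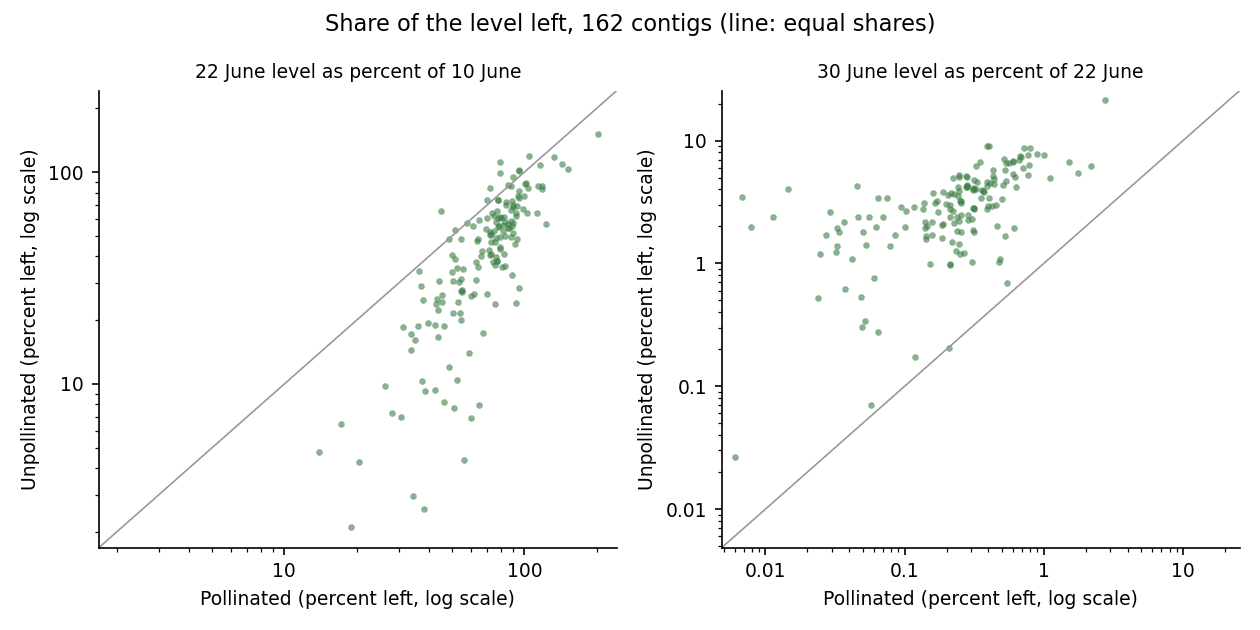
Level left in unpollinated (vertical axis) against pollinated megagametophytes (horizontal axis) for each of the 162 members, in percent on log scales, for 22 June as a share of 10 June and for 30 June as a share of 22 June. More was left in pollinated megagametophytes for 151 members over the first interval, below the line of equal shares, and in unpollinated ones for 161 over the second, above it.

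The steepest part of the course lay between 22 and 30 June in both states, and it was steeper with pollen. By the rule, a fall from at least 10 FPKM to under 1 FPKM had to come after 22 June. Contigs under 10 FPKM in a library of 22 June are not members, so the place of the steepest part is partly set by the choice. Over the 8 days from 22 to 30 June the median member kept 0.250% of its 22 June level in pollinated and 2.95% in unpollinated megagametophytes. The share left was larger without pollen for 161 of 162 members. Under 1% was left for 157 members with pollen and for 15 without. The median change per day, in log2(FPKM + 1), was -0.04, -0.85 and -0.06 over the 3 intervals in pollinated megagametophytes and -0.09, -0.565 and -0.26 in unpollinated ones. Of the whole difference in log2(FPKM + 1) between 10 June and 6 July, the median member passed 88.7% between 22 and 30 June with pollen and 61.0% without. This interval held the largest step of all 162 members with pollen and of 151 without, the other 11 taking theirs before 22 June. On this scale the course was an abrupt step in the pollinated libraries and a more drawn-out decline in the unpollinated ones. The offset of 1 FPKM flattens changes under 1 FPKM, and the pollinated median was already 0.395 FPKM on 30 June. It therefore flattens the last interval. How it alters the contrast between the states was not tested. As a share of the 30 June level, the median member had 25.6% left on 6 July with pollen and 8.37% without.

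On 30 June, the date the rule did not use, the members stood lower in pollinated than in unpollinated megagametophytes, the reverse of 22 June. The median was 0.395 FPKM (range 0.0353 to 2.84) with pollen and 2.62 FPKM (range 0.0353 to 19.7) without. At 1 FPKM or more were 15 members with pollen and 124 without, and at 10 FPKM or more 0 and 13. All 15 that reached 1 FPKM with pollen also did so without. Their share of all FPKM was 0.0164% and 0.129%. The lowest cluster of values held 24 members with pollen and 4 without.

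Pollinated megagametophytes were lower for 158 members on 30 June, against 31.2% of all contigs and 43.3% of those that reached 1 FPKM in either library. The other direction held for 4 members, against 59.5% and 56.0%. The median difference was -1.40 in log2(FPKM + 1), with quartiles of -2.0 and -0.73, while over all contigs it was 0.01. As a ratio of levels, the median member stood 7.14-fold higher in unpollinated megagametophytes (quartiles 3.95 and 12.1). The ratio was 10 or more for 53 members, although many pollinated values lie near the lowest cluster and their ratios are imprecise. A difference of 2-fold or more in log2(FPKM + 1) was found for 105 of the 124 members that reached 1 FPKM in either library (84.7%), all lower in pollinated. The same call was made for 6.09% of all such contigs, and 8.54% were 2-fold or more higher in pollinated.

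The widest gaps on 30 June were those of GAZW02017755, at 0.840 FPKM with pollen and 12.5 FPKM without, and GAZW02056484, at 0.945 and 12.5 FPKM. On 22 June they had stood at 210 and 138 FPKM and at 384 and 246 FPKM, so both were then higher with pollen, and in each state they stood above their 10 June levels. The highest levels on 30 June belonged to GAZW02048392, at 2.84 and 19.7 FPKM, and GAZW02085183, at 1.53 and 14.0 FPKM. The 4 members that were higher in pollinated were GAZW02027246, GAZW02092119, GAZW02043354 and GAZW02056752, the last pair named after their values were seen. With pollen the highest of them was GAZW02092119, at 0.505 FPKM against 0.266 FPKM without, and without pollen it was GAZW02043354, at 0.329 FPKM against 0.395 FPKM with pollen. Only members near the bottom of the scale thus departed from the common direction.

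**Figure D3:**
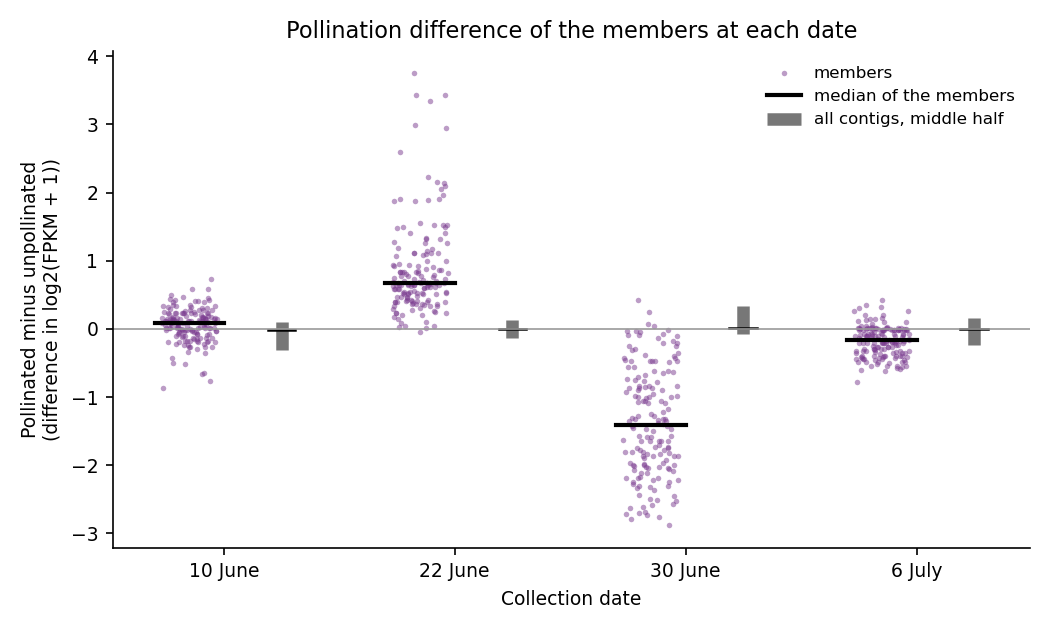
Pollinated minus unpollinated difference in log2(FPKM + 1) of each member (points, with their median as a black line) at each date, with the middle 50% of all 54889 contigs (grey bars, median as a thin line). The members lie above 0 on 22 June (median 0.67) and below 0 on 30 June (median -1.40).

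Both gaps occurred in the same contigs. For 157 of 162 members pollinated megagametophytes were higher on 22 June and lower on 30 June, against 16.1% of all contigs. The opposite order was shown by 0 members. Both directions also held in 89.8% of the 59 contigs that missed only the limit in scales and bracts. They held in 46.6% of the 537 contigs that reached 100 FPKM on 10 June and were not lost by 6 July. The gaps were 2-fold or more on both dates for 8 members, for 12 of those 59 contigs, 5 of those 537 and 259 of all 54889. The differences of the 2 dates correlated at Spearman rho 0.669 across members. Members with a wide lead of the pollinated library on 22 June thus tended to have a small deficit on 30 June. Contigs near the lowest values in both libraries can show little deficit in log2(FPKM + 1). On 30 June the members with the widest lead, GAZW02003165 and GAZW02038539, stood at 0.0425 and 0.102 FPKM with pollen and 0.0644 and 0.173 FPKM without. How much of the correlation this limit makes was not tested. This correlation is a description over 162 members of the same 4 libraries.

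The order of levels on 30 June was closer to that of 22 June without pollen. Levels of the 2 dates correlated at Spearman rho 0.752 in unpollinated and 0.26 in pollinated megagametophytes, while levels of 10 and 30 June correlated at 0.151 and 0.132. On 30 June 103 members were under 0.5 FPKM with pollen and 19 without, and 24 and 4 lay in the lowest cluster. How much such imprecise values lower the pollinated correlation was not tested. Members were also ranked by the share of the 10 June level left without pollen on 22 June. The lowest 40 (2.11% to 25.02% left) had a median of 0.803 FPKM on 30 June without pollen and 0.227 FPKM with pollen. The highest 41 (64.0% to 151% left) had medians of 5.59 and 0.625 FPKM. The ranking uses the unpollinated libraries of 10 and 22 June, and both sides share their libraries.

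Limma was used to ask whether the pollination differences exceeded their variation between dates. With date as a block, 0 of 162 members passed for a difference over the 4 dates (limma adjusted p of 0.861 or more, 0 at an unadjusted p under 0.05), where 0.00369% of all contigs tested passed and 4.81% had an unadjusted p under 0.05. The estimates were above 0 for 51 members and below 0 for 111, with a median of -0.19 in log2(FPKM + 1). That sign is unstable, with a median of 0.22 without the libraries of 30 June. For a difference that grows or shrinks by day, 0 members passed (smallest limma adjusted p 0.856, 0 at an unadjusted p under 0.05), against 0.0% of all contigs (5.98% unadjusted). Opposite gaps on 22 and 30 June enter both tests as variation.

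The gap of 30 June set against that of the other dates gave 0 members (smallest limma adjusted p 0.392) and 0 of 27065 contigs, 0.0%. An unadjusted p under 0.05 was found for 98 of 162 members and for 4.94% of all contigs tested, but the rule bounds the gaps of 22 June and 6 July that enter the error of the members, so nothing is read from these counts. The estimate is the gap of 30 June less the mean gap of the other dates. It was below 0 for 160 members, and its median was -1.65 in log2(FPKM + 1), against 0.05 over all contigs. The rule bounds the gaps of the other dates for members only, so nothing is read from that contrast either. For GAZW02017755 the estimate was -2.96 ± 0.46 (SE) with a limma adjusted p of 0.512, and for GAZW02056484 -2.90 ± 0.51 with 0.572. For GAZW02027246, near the lowest cluster on 30 June, it was -0.62 ± 1.56 with 0.994. The model leaves 2 residual degrees of freedom, and no member can be said to differ by it after adjustment.

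On 6 July, where the rule holds every member under 1 FPKM, the residual was smaller with pollen. The median was 0.0570 FPKM in pollinated megagametophytes (range 0.0281 to 0.765) and 0.248 FPKM in unpollinated ones (range 0.0140 to 0.972). Taken member by member, the median share of the 10 June level left was 0.0347% and 0.104%. The pollinated median lies in the lowest cluster of values, so with pollen neither figure is an exact level. The lowest cluster of values held 85 members with pollen and 42 without, or 52.5% and 25.9%, against 28.2% and 27.6% of all contigs. These shares are not like for like with those of all contigs. Of the 54889 contigs, 24632 with pollen and 25242 without reached 1 FPKM, and the rule keeps such contigs out of the set. In both libraries 29 members lay in that cluster, and in neither 64. Pollinated megagametophytes were lower for 123 members, higher for 31 and equal for 8, with a median difference of -0.16 in log2(FPKM + 1). Among all contigs 49.0% were lower and 39.6% higher. The counts of members include the 29 in the cluster in both libraries, whose direction has no meaning.

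The gap on 6 July is bounded by the rule and by the lowest cluster of values, so its size is not set against that of 30 June. The median member kept 25.6% of its 30 June level with pollen and 8.37% without, and 140 and 156 members were lower on 6 July than on 30 June. In pollinated megagametophytes 14 were equal and 8 higher, and in unpollinated ones 6 were higher. From 10 June on, 126 members were lower on each later date with pollen and 147 without. These counts and the shares left include values in the lowest cluster. By the mean log2 value of both states, the largest residuals on 6 July were those of GAZW02026079, at 0.395 FPKM with pollen and 0.972 FPKM without, and GAZW02048392, at 0.395 and 0.892 FPKM. On 30 June these contigs stood at 1.31 and 9.70 FPKM and at 2.84 and 19.7 FPKM. With pollen alone the largest residual was that of GAZW02015404, at 0.765 FPKM after 0.248 FPKM on 30 June, a contig named after its values were seen. Levels of 30 June and 6 July correlated at Spearman rho 0.489 with pollen and 0.434 without.

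By the rule the members are also under 1 FPKM in cone tissue. Scales had a median of 0.283 FPKM and bracts one of 0.586 FPKM. The lowest cluster held 45 and 42 members there (27.8% and 25.9%), against 20.7% and 12.1% of all contigs. These shares are not like for like either. Of the 54889 contigs, 28069 in scales and 39644 in bracts reached 1 FPKM, and the rule keeps such contigs out of the set. In scales, bracts and both libraries of 6 July at once it held 6 members. Levels on 30 June correlated with those in scales at Spearman rho 0.572 without pollen and 0.471 with pollen, and with those in bracts at 0.115 and 0.162.

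**Figure D4:**
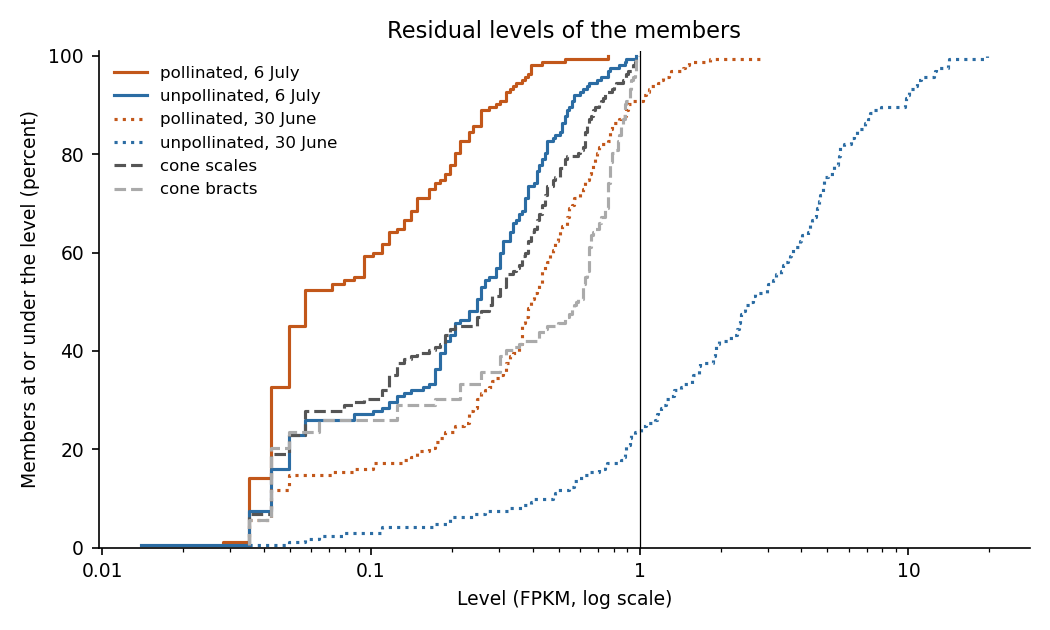
Percent of the 162 members at or under each level (FPKM, log scale) on 6 July (solid), on 30 June (dotted) and in scales and bracts (dashed), with a line at 1 FPKM. On 30 June 15 members reached 1 FPKM with pollen and 124 without, while on 6 July the medians were 0.0570 and 0.248 FPKM.

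Some members may be parts or copies of the same gene. Contigs with directly consecutive numbers, which an assembly can give to related transcripts, were counted: 23 members stood next to another member, in 10 runs of at most 3. In GAZW02022643 and GAZW02022644 the levels were nearly alike, at 163 and 148 FPKM on 10 June, 121 and 120 FPKM on 22 June and 0.366 and 0.301 FPKM on 30 June in pollinated megagametophytes. GAZW02014113 and GAZW02014114 followed a like course at different levels, 319 and 130 FPKM on 10 June and 303 and 111 FPKM on 22 June. Both pairs were picked as examples after their values were seen. Most contigs next to a member did not reach its limit of 10 June. Of 213 such contigs outside the set, 27 reached 100 FPKM in both libraries of 10 June. Among these, 13 were under 1 FPKM in both of 6 July. Of all 54889 contigs, 801 reached 100 FPKM in both libraries of 10 June, and 264 of these were then lost. Both shares were thus higher among the neighbours than over all contigs. Whether reads were shared between related contigs is not known from the table.

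The members were set beside 3 other groups of contigs that also reached 100 FPKM with and without pollen on 10 June, without a test of the difference. The 59 contigs with the same course but 1 FPKM or more in scales or bracts had higher levels on 10 June, with medians of 412 and 448 FPKM in pollinated and unpollinated megagametophytes. Their medians on 30 June were 0.670 and 4.46 FPKM, and 94.9% were higher in pollinated on 22 June and 94.9% lower on 30 June. The higher level with pollen on 22 June and the lower one on 30 June thus occurred on both sides of the limit of 1 FPKM in cone tissue. In bracts these 59 had a median of 1.22 FPKM, with quartiles of 1.10 and 1.43 FPKM, against a median of 0.586 FPKM in the members.

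The 32 gametophyte-only contigs that were under 10 FPKM in a library of 22 June had medians of 32.4 FPKM with pollen and 4.03 FPKM without on that date. All 32 were higher in pollinated on 22 June, and on 30 June their medians were 0.0425 and 0.0681 FPKM. The 537 contigs that were not lost by 6 July had medians of 155 and 145 FPKM on 22 June and 107 and 117 FPKM on 30 June. This group can hold contigs lost in 1 state: on 6 July 505 reached 1 FPKM with pollen and 535 without. Under 1% of the 10 June level was then left for 44 with pollen and 41 without. Of these, 66.7% were higher in pollinated on 22 June and 68.0% lower on 30 June, with median differences of 0.14 and -0.16 in log2(FPKM + 1). Both directions occurred there too, at a smaller size, so they are not shown to belong to the members alone.

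**Figure D5:**
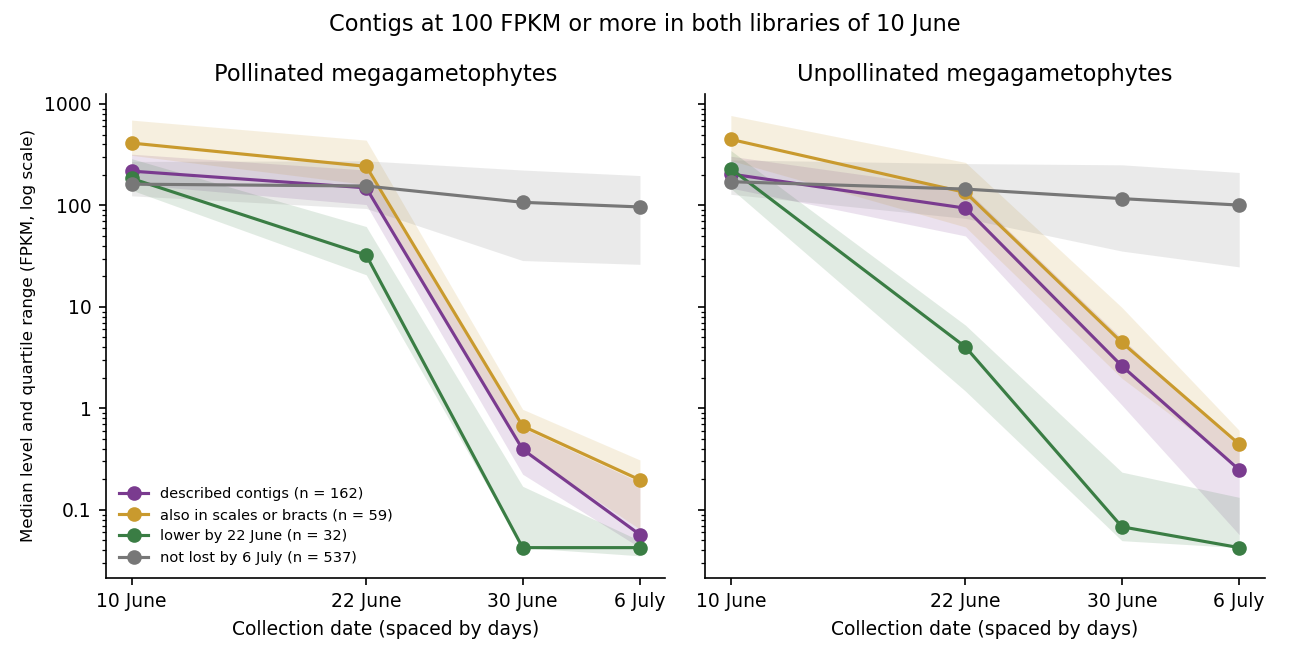
Median level (points) and quartile range (bands) in FPKM on a log scale by date for the described contigs and 3 other groups that reached 100 FPKM in both states on 10 June, in pollinated and unpollinated megagametophytes. The described contigs and the 59 also present in cone tissue run in parallel, while the 537 not lost by 6 July stay near 100 FPKM.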

How the data were processed

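The authors deposited 1 table of 54889 contigs in 10 libraries, per the file headers on identifiers of a transcriptome assembly. The deposited values, which the authors had put on a log scale, were read as log2(FPKM + 1), a reading that the sources used here do not state and on which every FPKM level rests. Per the submitters' processing notes the tools were RSEM 1.2.12, Bowtie 1.0.1, R 3.1.0, Trim Galore 0.2, FastQC 0.10 and bedtools 2.17, with no roles given. Values span 0.01 to 12.28, and whether a common distribution was imposed on the libraries is not given. Reads per library are unknown, so no counting error is given. FPKM is relative to the library.

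Members, comparison sets and tests were chosen with earlier results of these data known. The limits were 6.66 and 3.46 in log2(FPKM + 1), and 1. Limma 3.58.1 in R 4.3.3 (trend, date as a block, pseudocount 1 FPKM, mean of 1 FPKM or more, Benjamini-Hochberg over 27065 contigs, threshold 0.05) tested pollination in 3 models. Every member passed the filter because of the rule. Models were tested on simulated data. P-values measure variation between dates, not between trees. A 2-fold call means a difference of 1 in log2(FPKM + 1), which understates changes of low contigs. Contigs were named by a rule of at most 2 identifiers per direction and comparison: highest on 10 June, on 30 June and on 6 July, and widest gaps on 22 and 30 June. Exceptions are marked in the text. Summaries and plots were made in Python 3.11.15 with pandas 2.3.3, numpy 2.4.6, scipy 1.17.1 and matplotlib 3.10.9.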

Additional observations from a re-analysis of the deposited data

Results flagged for a closer look

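The gap between pollinated and unpollinated megagametophytes had opposite directions on 22 and 30 June, with member medians of 0.67 and -1.40 in log2(FPKM + 1), pollinated minus unpollinated. Each date has 1 pair of libraries, and the difference between these 2 dates was not tested. In the nearest test, of 30 June against the other dates, 0 of 162 members passed (smallest limma adjusted p 0.392; 98 at an unadjusted p under 0.05, a count shaped by the rule).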

How the results depend on the processing

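The directions of both gaps held under all alternatives tried: the median difference over members was 0.52 to 0.78 on 22 June and -2.58 to -0.51 on 30 June in log2(FPKM + 1). The outer values of 30 June came from pseudocounts of 0.1 FPKM (-2.58) and 5 FPKM (-0.51), since levels near 1 FPKM weigh more with a small pseudocount. The median share left on 22 June stayed at 64.7% to 80.1% with pollen and 37.7% to 57.9% without. A 10 June limit of 200 FPKM left 79 contigs, with a 30 June median of 4.24 FPKM without pollen, 25 contigs 2-fold or more higher in pollinated on 22 June and 57 lower on 30 June. Without a limit on 22 June the count higher on 22 June was 75. At 4-fold the counts were 12 and 42. On 30 June the count lower was 25 with a pseudocount of 5 FPKM and 13 when 1 of the libraries had to reach 10 FPKM. The limma estimate over the 4 dates had a median over members of -0.19, but 0.052 with a pseudocount of 5 FPKM and 0.22 without both libraries of 30 June. In that test 1 contig outside the set passed. The count was 0 with a pseudocount of 0.1 or 5 FPKM, without a filter, without a date block, or without any 1 date. For 30 June against the other dates 124 contigs passed without a filter, 0 of them members. No member passed in any limma alternative. The test of 30 June could not be fitted without that date. Libraries were paired by date through the block; no pairing by replicate number was possible because each group has 1 library. Unknown depth and the lowest cluster of values limit ratios on 30 June and 6 July.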
